A study of Mus musculus with 5 samples.

Results

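The genes described here are 32 DNA damage signalling and repair genes, chosen by name from the 39179 genes of the deposited count table: damage-sensing kinases, checkpoint proteins and the proteins of the main repair pathways. All 32 were found under their symbols, Mre11a among them, and all 32 were among the 13000 genes with enough counts to be tested. They were measured by RNA sequencing of TER119+ erythroid cells, sorted by flow cytometry from C57BL/6 fetal liver at 14.5 days post conception. The 2 KO libraries had the genotype Csnk2bfl/fl Vav+/Cre, and the 3 control libraries had the genotype Csnk2b+/+ Vav+/Cre, so the Cre allele was present in every embryo and the floxed Csnk2b alleles only in KO. Csnk2b encodes CK2 beta, the regulatory part of the kinase CK2. The Vav1 promoter drives Cre in all blood-forming cells, so deletion was not limited to erythroid cells. The labels do not say whether a library came from 1 embryo or from a pool, and the p-values therefore measure the spread between these libraries.

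Cells meet broken or stalled DNA with kinases that sense it. ATM and DNA-PKcs act at DNA ends, and ATR with its partner ATRIP acts at single-stranded DNA. They switch on CHEK2 and CHEK1, which hold the cell cycle and, with ATM, stabilise p53. Breaks are then rejoined by end joining or copied back from the sister chromatid by homologous recombination, and damaged bases, mismatches and crosslinks have pathways of their own. Erythroblasts of the fetal liver divide rapidly before they lose their nuclei, and many repair genes are expressed most in dividing cells. CK2 protein phosphorylates several repair scaffolds, XRCC1, XRCC4 and MDC1 among them, which RNA counts do not measure.

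The targeted gene, Csnk2b, fell in KO: its level was 112 and 95.6 CPM in KO replicates 1 and 2, against 186, 186 and 169 CPM in control replicates 1 to 3 (log2 fold change -0.80 ± 0.09 (SE), edgeR adjusted p = 0.0018). CPM are counts scaled to a common library size. The counts cover the whole gene and may include reads from outside the floxed part. Totals were 13187094 and 14986630 counts in the KO libraries and 13543392 to 15366021 in the controls. Across genes, the correlation of log2 CPM was 0.991 for the KO pair and 0.995 to 0.996 for pairs of controls. Control replicate 3 held 1142 counts over 4 Y-linked genes together with Xist at 547 CPM, whereas no other library held more than 2 such counts; without it 0 members passed and the members' median log2 fold change was -0.043. The summed level of 10 erythroid markers was 40969 and 51254 CPM in KO libraries and 46916 to 56715 CPM in controls. Of the 10, 0 passed in edgeR (3 at an unadjusted p below 0.05). All 10 had a fold change below 1, as did 47.5% of all genes tested, and the median log2 fold change of the 10 was -0.16. Both KO libraries lay below all controls in 5 of the 10, beside 19.3% of all genes tested. Of the macrophage markers 4 of 9 tested fell (44.4%), beside 1.83% of all genes tested, and all 9 had a fold change below 1. Their median log2 fold change was -0.65, and both KO libraries lay below all controls in 8 of the 9. The sum over 10 macrophage genes was 83.7 and 86.5 CPM in KO libraries and 107 to 119 CPM in controls, and Cd163 had 2 counts in all libraries together. Sums over 9 hepatocyte markers were 262 and 314 CPM in KO libraries and 222 to 352 CPM in controls. Among megakaryocyte, granulocyte, lymphocyte and stromal markers Col1a1 was the one that passed. It had 4.38 and 12.1 CPM in KO replicates 1 and 2 and 1.73 to 2.38 CPM in controls. Cd3e had 0 counts in every library. In KO replicates 1 and 2 the megakaryocyte sums were 120 and 157 CPM (controls 109 to 116) and the stromal sums 56.7 and 85.0 CPM (63.9 to 72.1). The granulocyte sums were 702 and 587 CPM (507 to 730) and the lymphocyte sums 9.53 and 7.45 CPM (8.84 to 11.7). The part of these other cells in the results below was not tested.

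The levels of the damage signalling and repair genes in KO cells lay close to those in control cells. At an edgeR adjusted p below 0.05, 1 of the 32 rose, the DNA ligase gene Lig3, and 0 fell, while 6.98% of all genes tested passed (5.15% higher and 1.83% lower in KO). At an unadjusted edgeR p below 0.05, 1 member was higher and 4 were lower, 15.6% of the members in all, beside 14.3% of all genes higher and 9.48% lower. The fitted fold changes ran from 0.856 for Brca2 to 1.23 for Lig3. The median log2 fold change of the members was -0.042, beside 0.015 over all genes tested. Of the 32, 19 had a fold change below 1 (59.4%), as did 47.5% of all genes. That number was 21 with RLE scaling and 23 with globin and mitochondrial genes left out, so the direction of members near 0 depended on the scaling.

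The precision allowed small changes to be bounded. The standard error of the log2 fold change was 0.066 to 0.18 among the members, with a median of 0.080. All 32 of the 95% intervals lay between -0.5 and 0.5 on the log2 scale, as did those of 55.7% of all genes tested. Intervals are wider at low counts, and 25 of the 32 members lay above the median level per exon length of all genes tested. The part of abundance in this contrast was not tested. The outermost bounds were 0.737-fold, for Lig4, and 1.39-fold, for Lig3. A change of more than this size lies outside every member's interval, and for the members that did not pass a smaller change may be present. In bulk samples such as these, fewer cells of a type and less RNA per cell cannot be told apart.

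**Figure D1:**
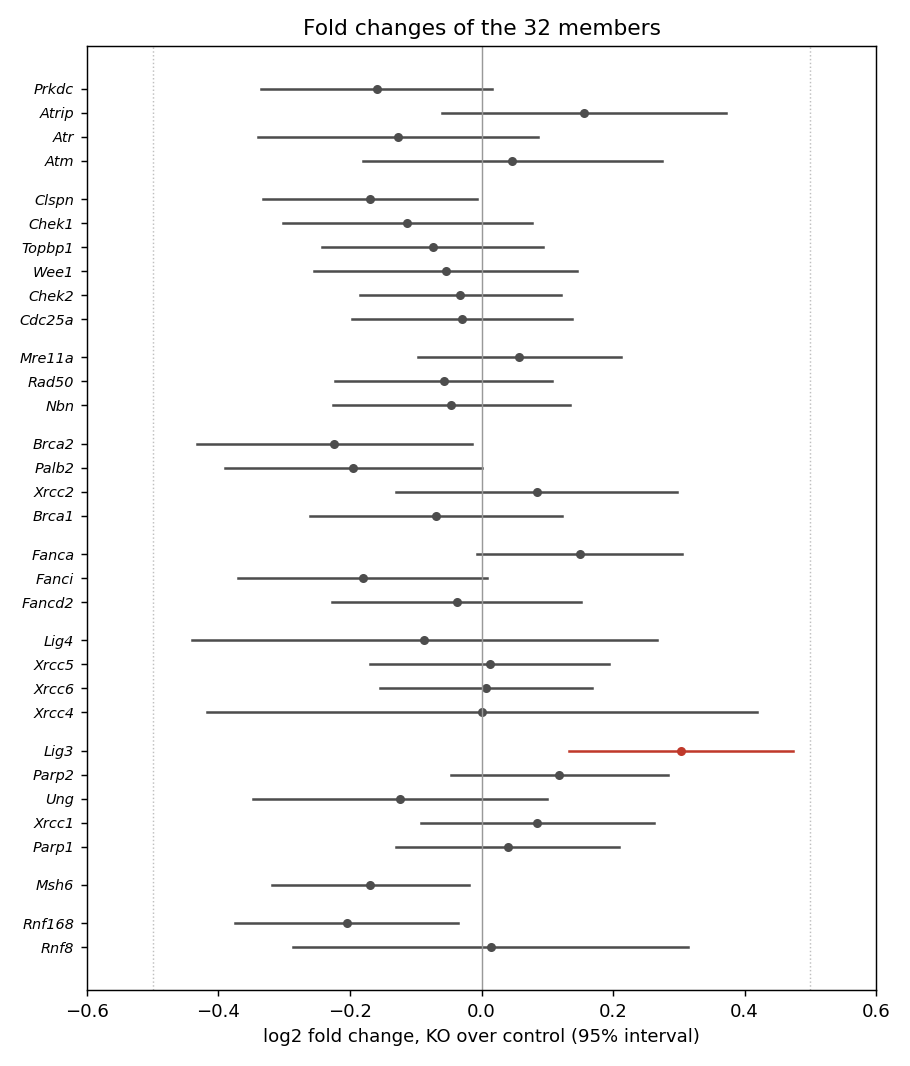
Log2 fold change of KO over control for the 32 members (points) with its 95% interval (lines), grouped from top to bottom as apical kinases, checkpoint signalling, the MRN complex, homologous recombination, Fanconi anaemia, end joining, single-strand break and base repair, mismatch recognition and break ubiquitination. All intervals lie inside the dotted lines at -0.5 and 0.5, and Lig3, in red, is the member past the adjusted threshold.

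Promoter sequences are shown for Lig3, the member that rose, and for the 3 genes with E2F letters among the 4 members lower at an unadjusted p below 0.05. RefSeq sequences of GRCm38.p6, 250 bases before to 50 after the gene start, were available for 26 of the 32 members. The E2F factors drive many replication and repair genes in S phase. Their letters were searched on both strands as TTTCCCGC, TTTCGCGC, TTTGCCGC or TTTGGCGC, beside CCAAT, the box bound by NF-Y, and no match overlapped another in the 4 windows shown. Capitals mark these matches (CCAAT or, for the minus strand, ATTGG), each sequence runs 5′ to 3′ on the plus strand, and the 4 lie at chr11:82780859-82781158 (Lig3), chr5:150522371-150522670 (Brca2), chr4:126556730-126557029 (Clspn) and chr17:87974800-87975099 (Msh6).
Lig3: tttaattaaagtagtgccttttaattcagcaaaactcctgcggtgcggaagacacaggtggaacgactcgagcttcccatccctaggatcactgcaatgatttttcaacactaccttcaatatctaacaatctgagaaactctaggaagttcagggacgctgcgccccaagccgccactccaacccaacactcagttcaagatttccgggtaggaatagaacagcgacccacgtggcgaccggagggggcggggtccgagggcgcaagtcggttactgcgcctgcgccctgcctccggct
Brca2: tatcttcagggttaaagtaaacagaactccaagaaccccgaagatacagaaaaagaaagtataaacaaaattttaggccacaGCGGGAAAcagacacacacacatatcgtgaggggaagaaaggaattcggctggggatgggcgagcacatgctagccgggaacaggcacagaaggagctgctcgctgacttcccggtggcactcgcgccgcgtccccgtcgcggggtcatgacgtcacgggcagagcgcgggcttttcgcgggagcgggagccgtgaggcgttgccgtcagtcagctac
Clspn: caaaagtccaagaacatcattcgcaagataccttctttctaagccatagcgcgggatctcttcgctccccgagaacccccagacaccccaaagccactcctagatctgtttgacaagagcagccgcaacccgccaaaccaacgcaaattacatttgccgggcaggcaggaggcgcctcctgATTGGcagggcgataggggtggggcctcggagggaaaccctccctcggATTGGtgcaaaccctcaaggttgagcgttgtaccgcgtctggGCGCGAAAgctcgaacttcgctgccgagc
Msh6: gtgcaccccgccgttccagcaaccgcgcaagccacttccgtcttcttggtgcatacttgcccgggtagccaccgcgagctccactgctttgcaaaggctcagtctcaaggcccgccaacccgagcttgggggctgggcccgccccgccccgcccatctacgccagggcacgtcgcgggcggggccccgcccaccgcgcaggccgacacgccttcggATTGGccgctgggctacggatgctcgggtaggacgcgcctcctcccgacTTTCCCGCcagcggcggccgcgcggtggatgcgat

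The Lig3 window held neither motif. The E2F letters began at base 83 of the Brca2 window, base 272 of the Clspn window and base 266 of the Msh6 window, and Clspn and Msh6 also held CCAAT on the minus strand. Rnf168, the fourth of the lower genes, had none in its window. Over the 26 members with a sequence, 7 held E2F letters (26.9%), beside 2.26% of the 32851 promoters of the same length and 4.39% of those of genes tested. CCAAT was held by 14 members (53.8%), beside 37.4% of all promoters and 39.2% of those of genes tested. The letters TTTGAA or TTCGAA, those of the CHR element of late cell cycle genes, were held by 2 members (7.69%), beside 19.2% of all promoters and 13.8% of those of genes tested. The 7 with E2F letters were Brca2, Clspn, Msh6, Topbp1, Chek2, Cdc25a and Xrcc6. Their log2 fold changes ran from -0.22 to 0.01, 6 of 7 were negative, and the median was -0.074. In the other 19 with a sequence, 8 were negative and the median was 0.012. The difference between members with and without E2F letters was not tested. A match is a description of letters and not a bound site.

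Among the apical kinases and ATRIP, 0 of 4 passed. Prkdc, which encodes DNA-PKcs, the kinase bound to DNA ends by the Ku proteins, had 82.7 and 73.2 CPM in KO replicates 1 and 2, against 87.0, 87.7 and 86.3 CPM in control replicates 1 to 3. Both KO values lay below the 3 controls, which were close to one another. Its log2 fold change was -0.16 ± 0.08 (SE, edgeR adjusted p = 0.25). Atrip, whose product carries ATR to single-stranded DNA, was at 24.3 and 28.1 CPM in KO libraries and 23.0 to 23.8 CPM in controls (log2 fold change 0.16, edgeR adjusted p = 0.36). Atrip shares 1147 bp of exon with Trex1 on the same strand, and Trex1 had 0 counts in every library, so reads of this pair cannot be assigned with certainty. Atr itself had a log2 fold change of -0.13 and Atm one of 0.05, and their groups overlapped. Atm, the kinase of chromosome breaks, was at 49.6 CPM in KO replicate 1 and 40.6 CPM in KO replicate 2, above and below the controls at 41.2 to 45.2 CPM.

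No checkpoint gene passed. All 6 had a fold change below 1, with a median of -0.064 on the log2 scale and a lowest value of -0.17, and 0 passed in edgeR with 1 at an unadjusted p below 0.05. That gene was Clspn, for claspin, the adaptor through which ATR activates CHEK1. It had 261 and 242 CPM in KO replicates 1 and 2, against 290, 277 and 280 CPM in control replicates 1 to 3, so the groups did not overlap. Its log2 fold change was -0.17 ± 0.07 (SE, edgeR adjusted p = 0.195). Topbp1, which activates ATR directly, had 483 and 467 CPM in KO libraries, against 506, 485 and 509 CPM in controls, a log2 fold change of -0.07 ± 0.07 (SE, edgeR adjusted p = 0.59). The groups did not overlap, but the higher KO library lay just under the lowest control. Chek1 and Chek2, the effector kinases, had log2 fold changes of -0.11 and -0.03 with overlapping groups. Wee1, which restrains CDK1 by phosphorylating it, was at -0.05, and Cdc25a, the phosphatase that opposes it and that CHEK1 marks for destruction, at -0.03.

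The MRN complex, which binds broken ends and recruits ATM, had no member past the threshold. Mre11a, its nuclease, had 101 and 107 CPM in KO replicates 1 and 2, against 98.8, 98.6 and 101 CPM in control replicates 1 to 3. The lower KO value lay within the controls. The log2 fold changes of Mre11a, Rad50, the ATPase that tethers ends, and Nbn, which links the complex to ATM, were 0.06, -0.06 and -0.05. None passed in edgeR, 0 of 3 had an unadjusted p below 0.05, and the groups overlapped for all 3.

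Of the homologous recombination genes 0 of 4 passed in edgeR and 1 had an unadjusted p below 0.05. Brca2, a mediator of strand exchange, had 128 and 104 CPM in KO replicates 1 and 2, against 138, 132 and 136 CPM in control replicates 1 to 3. Both KO values lay below the controls, and KO replicate 2 stood further off than KO replicate 1. Brca2 averaged 116 CPM ± 16.8 in KO (SD, n = 2) and 135 CPM ± 3.01 in controls (SD, n = 3), and the log2 fold change was -0.22 ± 0.09 (SE, edgeR adjusted p = 0.18). Palb2, which joins BRCA1 to BRCA2, had 37.0 and 33.0 CPM in KO libraries, against 41.3, 40.2 and 38.4 CPM in controls, with a log2 fold change of -0.19 ± 0.09 (SE, edgeR adjusted p = 0.21). Brca1, a ubiquitin ligase that promotes resection of ends, was at 272 CPM in KO replicate 1 and 229 CPM in KO replicate 2, on either side of controls at 262 to 264 CPM. Xrcc2, which acts in strand exchange, had a log2 fold change of 0.08. In all 4 genes KO replicate 2 was the lower of the KO libraries. Over the 13000 genes tested KO replicate 1 was the lower in 6580. The median log2 fold change of the 4 genes was -0.26 with KO replicate 1 left out and -0.0205 with KO replicate 2 left out, so its size rested on KO replicate 2.

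The Fanconi anaemia proteins act on crosslinks between DNA strands, FANCA in the core complex that adds ubiquitin and FANCD2 with FANCI as the pair it modifies. Fanci had 83.4 and 74.5 CPM in KO replicates 1 and 2, against 83.8, 90.9 and 93.6 CPM in control replicates 1 to 3. The groups did not overlap, though KO replicate 1 lay just under control replicate 1, and the log2 fold change was -0.18 ± 0.08 (SE, edgeR adjusted p = 0.23). Fanca lay on the other side, with 139 and 143 CPM in KO libraries and 122.5 to 132 CPM in controls, a log2 fold change of 0.15 ± 0.07 (SE, edgeR adjusted p = 0.23). Fancd2, the partner of Fanci, was at 119 CPM in KO replicate 1 and 100.3 CPM in KO replicate 2, around controls at 111 to 113 CPM. Fanci shares 921 bp of exon with Polg on the opposite strand and Fanca 920 bp with Zfp276, and the sources used here do not say whether counting used strand.

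Of the end joining genes 0 of 4 passed in edgeR, and 0 had an unadjusted p below 0.05. Xrcc5 and Xrcc6, for the Ku proteins that clamp DNA ends, had log2 fold changes of 0.01 ± 0.08 and 0.01 ± 0.07 (SE), and the sign of both changed in some alternative fits. Xrcc4 and Lig4, which together seal the ends, were among the least abundant members. Xrcc4 had 3.77 and 4.86 CPM in KO replicates 1 and 2, against 4.83, 4.42 and 3.74 CPM in control replicates 1 to 3. Lig4 had 4.15 and 4.99 CPM in KO libraries, against 4.89, 4.88 and 4.85 CPM in controls. The groups overlapped for all 4 genes. The 95% intervals were the widest of the members, -0.42 to 0.42 on the log2 scale for Xrcc4 and -0.44 to 0.27 for Lig4, the members with the lowest counts, 49 to 77 per library.

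Single-strand break and base repair held the 1 member that rose. Lig3 (ENSMUSG00000020697, a protein-coding gene on the plus strand of chromosome 11 from 82781108 to 82804274 in GRCm38) encodes DNA ligase III, which seals nicks with XRCC1 and is the ligase of mitochondrial DNA. It had 68.4 and 73.7 CPM in KO replicates 1 and 2, against 55.5, 58.1 and 59.2 CPM in control replicates 1 to 3. Both KO libraries lay above all controls, by more than the spread within either group. Lig3 averaged 71.0 CPM ± 3.73 in KO (SD, n = 2) and 57.6 CPM ± 1.87 in controls (SD, n = 3). The fold change was 1.23, with a log2 fold change of 0.30 ± 0.08 (SE, edgeR adjusted p = 0.045), which ranked Lig3 at 857 of the 13000 genes by p. The call was close to the threshold and passed in 3 of 12 alternative fits. It missed the threshold without control replicate 1, 2 or 3 (edgeR adjusted p = 0.17, 0.14 and 0.13), with DESeq2 (0.082) and with limma-voom (0.05003). It also missed it without KO replicate 2, without a filter on low counts, with a replicate block and with globin and mitochondrial genes left out. The log2 fold change stayed between 0.24 and 0.33 in all 12. Lig3 shares 1826 bp of its 7284 bp of exon with Rffl on the opposite strand. Rffl had 118 and 113 CPM in KO libraries and 119 to 123 CPM in controls. The part of reads from the shared exon in the Lig3 values was not tested.

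The partners of Lig3 did not pass. Xrcc1, the scaffold that holds ligase III, had a log2 fold change of 0.08 ± 0.08 (SE, edgeR adjusted p = 0.55). Parp2, a sensor of nicks, was at 80.7 and 86.9 CPM in KO libraries and 75.7 to 79.6 CPM in controls, and its log2 fold change was 0.12 (edgeR adjusted p = 0.36). Parp1, the main nick sensor, had 376 and 410.3 CPM in KO replicates 1 and 2, against 384, 380.4 and 384 CPM in control replicates 1 to 3, and its KO values lay on either side of the controls. Ung, the uracil glycosylase that opens base repair, was at 25.1 CPM in KO replicate 1 and 30.1 CPM in KO replicate 2, beside 29.6 to 30.7 CPM in controls. In all 5 genes of the group KO replicate 2 was the higher of the KO libraries. The same held for all 4 end joining members and for 6580 of the 13000 genes tested. Without KO replicate 1 the group's median log2 fold change was 0.10, and without KO replicate 2 it was 0.039.

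Mismatch recognition was represented by Msh6, whose product recognises mismatched bases. It had 179.2 and 179.0 CPM in KO replicates 1 and 2, against 208, 197 and 198 CPM in control replicates 1 to 3. The KO libraries were nearly equal and both below the controls, with a log2 fold change of -0.17 ± 0.07 (SE, edgeR adjusted p = 0.16).

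The ubiquitin ligases RNF8 and RNF168 mark chromatin at breaks in turn, and RNF168 writes the mark that 53BP1 binds. Rnf168 had 72.2 and 66.9 CPM in KO replicates 1 and 2, against 82.2, 80.9 and 77.3 CPM in control replicates 1 to 3. The groups did not overlap, and the log2 fold change of -0.20 ± 0.07 (SE, edgeR adjusted p = 0.14) gave Rnf168 the smallest p of the members after Lig3. Rnf8 had 10.4 and 12.9 CPM in KO libraries, against 11.8, 11.9 and 11.0 CPM in controls, on both sides of them. Rnf8 lies 5.47 Mb from Csnk2b on chromosome 17, and it shares 1542 bp of exon with the predicted gene Gm28043 on the same strand, so its reads cannot be assigned with certainty.

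**Figure D2:**
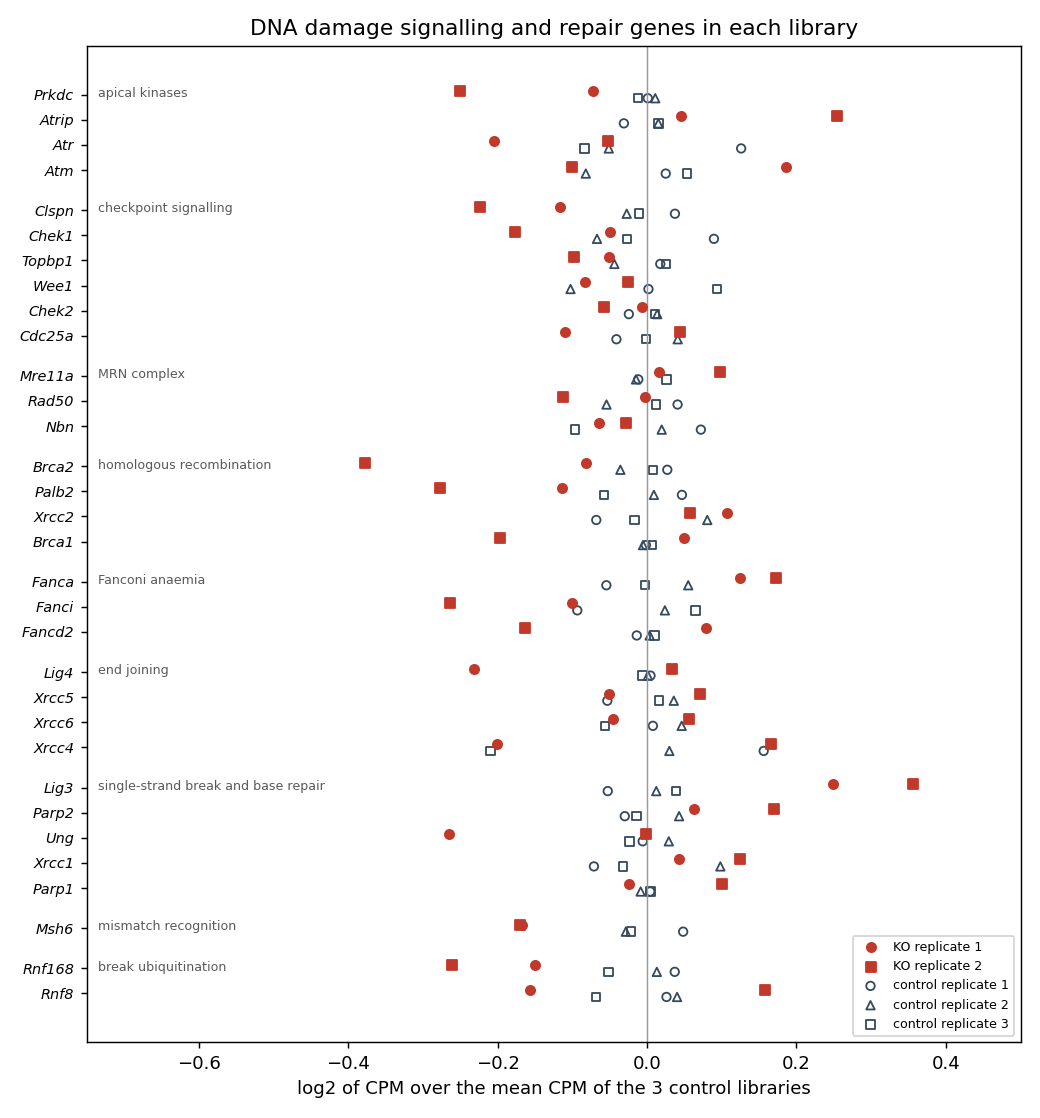
Log2 of the CPM of each library over the mean of the 3 control libraries, for the 32 members ordered by role, with KO libraries as filled red symbols above and control libraries as open symbols below in each row. The KO symbols lie below all controls for 8 members and above them for 4, and all points lie between -0.4 and 0.4.

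Counted over all roles, both KO libraries lay below all 3 controls in 8 members (25%) and above them in 4, beside 19.3% of all genes tested that lay below and 21.9% that lay above. The 8 were Brca2, Rnf168, Palb2, Fanci, Clspn, Msh6, Prkdc and Topbp1, and the 4 were Lig3, Atrip, Fanca and Parp2. In 22 members both KO libraries were to 1 side of the control mean, and the share of all genes with this trait was not counted. The gap between the KO libraries exceeded the range of the 3 controls in 22 of 32 members (68.8%), beside 47.1% of all genes. The median distance between the KO libraries was 0.12 on the log2 scale for the members and 0.18 for all genes.

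**Figure D3:**
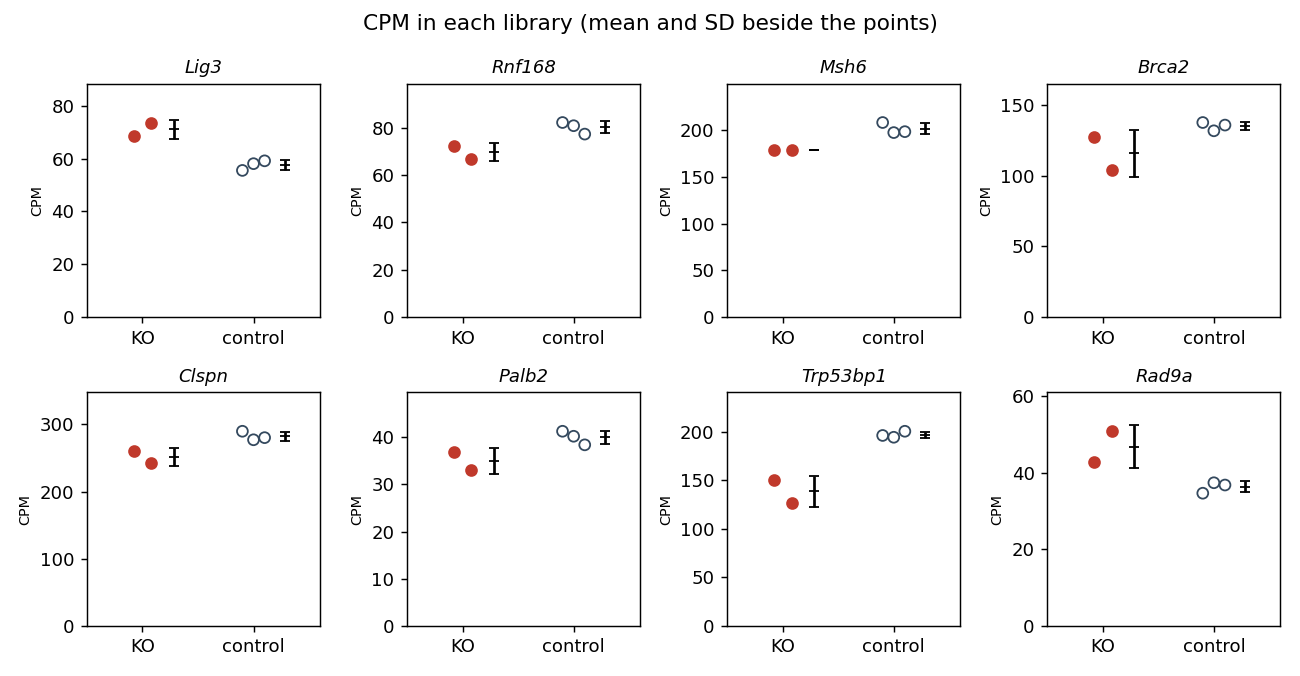
CPM in each KO (filled, left) and control (open, right) library for the 6 members with the smallest p and for Trp53bp1 and Rad9a, 2 damage response genes that are not members, with mean and SD beside the points and axes from 0. Lig3 and Rad9a lie higher in KO and the other 6 lower, with no overlap of groups.

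Transcript levels compared between genes were set per length, as CPM divided by the kilobases of merged exons (RPKM). The members ranged in controls from 0.937 RPKM for Lig4 to 72.3 RPKM for Parp1, a 77.2-fold span, and 25 of 32 lay above the median of all genes tested. The median of the members was 14.7 RPKM in KO cells and 15.01 RPKM in controls, and over all genes tested it was 5.62 RPKM in KO cells and 5.41 RPKM in controls. The most abundant per merged exons were Parp1 at 74.3 RPKM in KO and 72.3 RPKM in controls, Msh6 at 41.2 RPKM in KO and 46.3 RPKM in controls, and Topbp1 at 42.3 RPKM in KO and 44.5 RPKM in controls. The least abundant after Lig4, at 0.879 RPKM in KO and 0.937 RPKM in controls, were Rnf8, at 0.994 RPKM in KO and 0.988 RPKM in controls, and Xrcc4, at 1.024 RPKM in KO and 1.028 RPKM in controls. The ranges of those 3 over all 5 libraries overlapped. The RPKM ratio of the ligase genes, Lig3 to Lig4, was 11.1 in KO cells and 8.44 in controls. The ratio of the Ku genes, Xrcc6 to Xrcc5, was 1.70 in KO cells and 1.71 in controls, and that of Parp1 to Parp2 was 3.22 in KO cells and 3.40 in controls. The length used bears on these levels: per length of the longest transcript the control median was 17.8 RPKM, Topbp1 stood at 95.7 RPKM in controls, near Parp1 at 98.8 RPKM, and Clspn at 56.2 RPKM passed Msh6 at 47.4 RPKM. The order of the 32 members correlated with that per merged exons at a Spearman rho of 0.952, over the same 3 libraries.

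**Figure D4:**
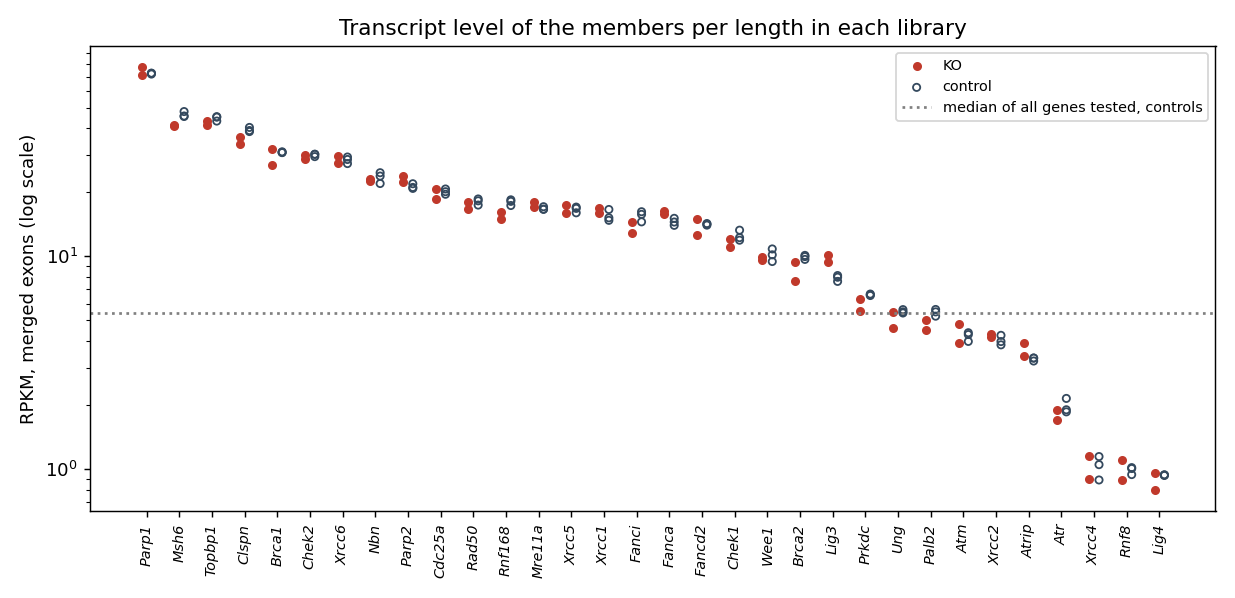
RPKM of each member in each KO (filled, left) and control (open, right) library on a log axis, ordered by the control mean, with the median of all genes tested in controls as a dotted line. The order runs from Parp1 at 72.3 RPKM in controls to Lig4 at 0.937 RPKM.

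Few other genes of the same pathways passed. Of 113 further damage response genes, 112 were tested, 1 rose and 1 fell in edgeR, and 110 did not pass. The median log2 fold change was -0.031. Trp53bp1, for 53BP1, which shields breaks from resection and reads the mark made by RNF168, fell. It had 150.2 and 127 CPM in KO replicates 1 and 2, against 196, 195 and 201 CPM in control replicates 1 to 3, a log2 fold change of -0.51 ± 0.08 (SE, edgeR adjusted p = 0.0090). All KO values lay well below the controls, though the call missed the threshold without control replicate 1 or 2 (edgeR adjusted p = 0.052 and 0.058). Rad9a, of the clamp that helps ATR at stalled forks, rose, with 42.8 and 50.8 CPM in KO libraries, against 34.6, 37.3 and 36.8 CPM in controls. Its log2 fold change was 0.37 ± 0.09 (SE, edgeR adjusted p = 0.049), and the call was lost in 8 of 12 alternatives, in which the adjusted p reached 0.18. The other clamp genes did not rise with it: the log2 fold change was -0.28 for Hus1, with an edgeR adjusted p of 0.073, and -0.09 for Rad1.

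The lists of these further genes had medians on either side of 0, and differences between lists were not tested. Of all genes tested 47.5% had a fold change below 1. Of 22 other break sensing and mediator genes, 16 had a fold change below 1, with a median log2 fold change of -0.077. Of 29 other homologous recombination and Fanconi anaemia genes, 22 had a fold change below 1, with a median of -0.12. None passed in edgeR, and 8 (27.6%) had an unadjusted p below 0.05, all lower in KO, beside 9.48% of all genes tested. Both KO libraries lay below all controls in 14 of the 29 (48.3%) and above them in 3, beside 19.3% and 21.9% of all genes tested. The most abundant genes of this list were Usp1, which removes ubiquitin from FANCD2, at 54.2 RPKM in KO and 56.8 RPKM in controls, and Dna2, a nuclease of resection, at 34.8 RPKM in KO and 38.7 RPKM in controls. Of 17 end joining and translesion genes 7 had a fold change below 1 and the median was 0.054. Their most abundant genes were Ube2b, a ubiquitin conjugating enzyme that works with RAD18, at 40.6 RPKM in KO and 46.4 RPKM in controls, and Polh, a polymerase that copies past lesions, at 15.7 RPKM in KO and 18.5 RPKM in controls. Of 44 excision, mismatch and reversal genes 19 did, with a median of 0.070. Among the abundant genes of this list, Fen1, a flap nuclease, was at 182 RPKM in KO and 196 RPKM in controls. No gene of the end joining list or of the excision list passed in edgeR. At an unadjusted edgeR p below 0.05 were 4 (23.5%) and 5 (11.4%) of them, beside 23.8% of all genes tested. The median of the recombination list was -0.21 when KO replicate 1 was left out and -0.054 when KO replicate 2 was, and that of the excision list was 0.10 and -0.013 in these fits.

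The genes of the scaffolds that CK2 is known to phosphorylate, Xrcc1, Xrcc4 and Mdc1, did not pass. Mdc1, the scaffold that binds marked chromatin at breaks, had 299 and 251 CPM in KO libraries and 301 to 318 CPM in controls, with a log2 fold change of -0.16 ± 0.09 (SE, edgeR adjusted p = 0.31). The genes of proteins that dock on these scaffolds, named after their values were seen, include Aptx (log2 fold change 0.36), Aplf (-0.15) and Nbn (-0.05), with edgeR adjusted p-values of 0.12, 0.26 and 0.77. The catalytic CK2 genes Csnk2a1 and Csnk2a2 had log2 fold changes of 0.16 and -0.12 (edgeR adjusted p = 0.27 and 0.44).

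Genes of the cell cycle are given beside the repair genes. Of 24 replication and S phase genes, all 24 had a fold change below 1, beside 47.5% of all genes tested. The median log2 fold change was -0.14. Both KO libraries lay below all controls in 18 of the 24 (75%), beside 19.3% of all genes tested, and above them in 0. At an unadjusted edgeR p below 0.05, 7 were lower (29.2%), beside 9.48% of all genes tested. At the adjusted threshold 1 fell: Tyms, for thymidylate synthase, had 123 and 114 CPM in KO replicates 1 and 2, against 147, 149.9 and 141 CPM in control replicates 1 to 3 (edgeR adjusted p = 0.040). No S phase gene fell in 6 of 12 alternative fits, those without control replicate 1, 2 or 3, without KO replicate 2, without a filter on low counts and with a replicate block, and 8 fell without KO replicate 1. Their summed level was 11541 and 11125 CPM in KO replicates 1 and 2 and 12415 to 12627 CPM in controls. Of 15 mitotic genes 0 passed in edgeR, DESeq2 or limma-voom (3 at an unadjusted p below 0.05 in each). The fold change was below 1 in 11 of the 15, and the median log2 fold change was -0.062. Both KO libraries lay below all controls in 4, Mki67, Ccna2, Kif11 and Tpx2, and above them in 3, Ccnb2, Aurka and Bub1b. Of all genes tested 19.3% lay below and 21.9% above. Mki67, the proliferation marker and the most abundant gene of this list, had 7026 and 5029 CPM in KO libraries and 7092 to 7495 CPM in controls. The other 14 summed to 5694 and 5218 CPM in KO replicates 1 and 2 and 5676 to 5743 CPM in controls. KO replicate 2, the lower of the KO libraries in all 4 recombination members, was also the lower in both of these sums. It was the lower in the erythroid, macrophage, granulocyte and lymphocyte marker sums too, and the higher in the hepatocyte, megakaryocyte and stromal sums. The part that the share of dividing cells may have in the values of the repair genes was not tested.

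Genes that p53 switches on after damage are given for comparison, and their difference from the members was not tested. Of 16 such genes 9 rose in edgeR and 0 fell, with a median log2 fold change of 0.54. The number that rose was 6 without a filter on low counts and 7 without any 1 of the control libraries, and 2 fell without KO replicate 1. Cdkn1a, for the CDK inhibitor p21, had 87.6 and 67.9 CPM in KO replicates 1 and 2, against 4.57, 4.65 and 5.62 CPM in control replicates 1 to 3, a log2 fold change of 3.97 ± 0.14 (SE, edgeR adjusted p = 2.1e-06). Gadd45a, a growth arrest gene induced by damage, had 231 and 249 CPM in KO libraries and 156 to 166 CPM in controls, a 1.48-fold change (edgeR adjusted p = 0.0027). The other 7 that rose were Phlda3, Zmat3, Bbc3, Pmaip1, Sesn2, Ccng1 and Mdm2, with log2 fold changes from 0.34 for Mdm2, the ubiquitin ligase of p53, to 2.10 for Phlda3, an inhibitor of AKT. The repair genes among these 16 did not pass: Ddb2 and Xpc, which find bulky lesions, had log2 fold changes of 0.13 and 0.18, and Polk and Polh, polymerases that copy past lesions, had 0.13 and -0.23, with edgeR adjusted p-values of 0.46, 0.45, 0.40 and 0.14. Rrm2b, a ribonucleotide reductase subunit, was at 5.23 and 4.86 CPM in KO libraries and 4.80 to 5.28 CPM in controls. Sesn1 was lower in KO without passing, at 68.1 and 57.3 CPM in KO replicates 1 and 2 and 72.9 to 80.7 CPM in controls. Its log2 fold change of -0.27 was the lowest of the 16. Bax did not pass, though both KO libraries lay above all controls. Of the 16, 3 had a fold change below 1, and 2 were lower at an unadjusted edgeR p below 0.05. Trp53 itself did not pass (log2 fold change 0.08, edgeR adjusted p = 0.63). The list was chosen with earlier results on these libraries known, so its direction is no independent evidence.

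**Figure D5:**
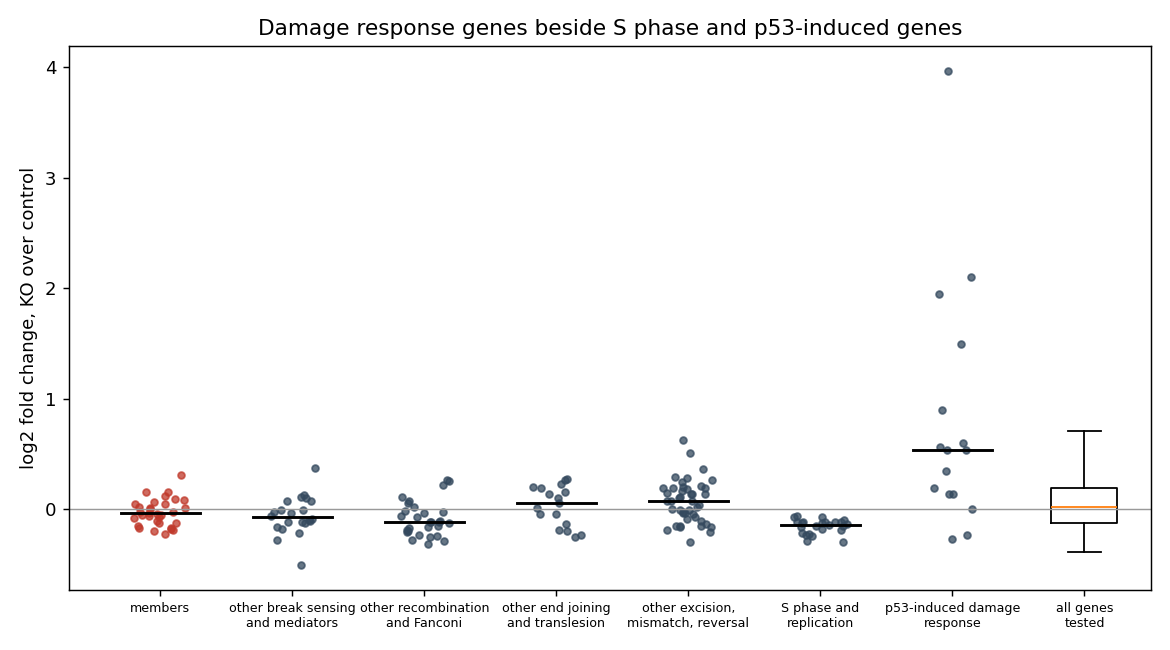
Log2 fold change of KO over control for the 32 members (red), 4 lists of further damage response genes, S phase genes and p53-induced genes (blue), with a bar at each median; the box shows all genes tested with whiskers at percentiles 5 and 95, which lie at -0.40 and 0.71. The members and the other repair lists centre between -0.12 and 0.07, whereas the p53-induced genes centre at 0.54.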

How the data were processed

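The deposited values are raw counts per Ensembl gene and library, without normalisation by the authors. Per the submitters' processing notes, cutadapt, STAR, Bowtie and HTSeq were used with build mm10; the sources used here give no versions, strand use or treatment of reads with several matches. Per the labels' protocols, poly(A) RNA was selected and libraries were read on an Ion Proton. Symbols, gene models and exon lengths came from GENCODE M21 (GRCm38, the assembly mm10 names), with 37693 of 39179 identifiers matched.

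The members and lists were chosen with earlier results of these data known. KO was tested against control by edgeR's quasi-likelihood test (edgeR 4.0.16, R 4.3.3) on all genes kept by filterByExpr (13000), with TMM scaling, the group as the only term and Benjamini-Hochberg adjustment over all genes kept. CPM use the TMM-scaled library size. Standard errors came from the fold change and F, and 95% intervals from them and edgeR's total degrees of freedom, which share the spread among genes. The steps were tested on simulated data. Alternatives were RLE scaling, 2 other filters, DESeq2 1.42.0, limma-voom (limma 3.58.1), a replicate block, globin and mitochondrial genes left out, and each library left out.

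Named with values for each library were members past the threshold, the 6 with the smallest p, the 3 most and 3 least abundant per length, and the largest change of each role; of other lists, genes past the threshold or the 2 most abundant (of the 9 p53-induced genes that rose, 2 with values for each library). Other genes were named after their values were seen. Some genes that this rule names are not reported here. Members overlapping other genes, 13 of 32, were kept. Reads carry no molecular identifiers, so counts are not independent molecules.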

Additional observations from a re-analysis of the deposited data

How the results depend on the processing

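With all 5 libraries 1 member rose, Lig3, and 0 rose without a filter on low counts, with DESeq2, with limma-voom or with globin and mitochondrial genes left out. Over the fits that left out 1 library, 0 to 1 members rose and 0 to 7 fell, 7 of them without KO replicate 1, where the lone KO library is assumed to vary like the controls; there 8 members passed, among them Brca2, Palb2, Clspn and Rnf168. In the other 11 alternatives no member but Lig3 passed. The further damage response genes that rose went to 0 without a filter, with DESeq2 and with limma-voom, and over the fits without 1 library 0 to 8 rose and 0 to 18 fell. Over all genes, 235 rose and 53 fell without a filter, and 210 to 1709 rose and 31 to 1247 fell with 1 library left out. Without control replicate 3, which held Y-linked counts, 0 members passed. The causes were not tested. The members' median log2 fold change stayed between -0.058 and -0.037. Of 382 pairs of a member and an alternative, 366 stayed on the same side of the threshold, 9 lost a call, all of Lig3, and 7 gained one. With the longest transcript in place of merged exons the median level in controls was 17.8 RPKM, beside 15.01.

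The replicate number as a block gave 0 members and 0 further genes that rose, and 702 genes higher and 171 lower over all genes. The labels do not say that a number pairs libraries. Deviations of same-numbered libraries from their group means correlated at 0.0016 and 0.042. With only 2 KO libraries their deviations mirror each other, so these values cannot decide whether libraries were paired. Counts of 49 to 7869 per member and library limit the least abundant members most.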
